A study of Homo sapiens with 6 samples.

Results

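The genes that encode the subunits of AP-1 were described by the open chromatin around them in RH30 cells, a line from a fusion-positive (alveolar) rhabdomyosarcoma, with and without MyoD. The 10 genes were FOS, FOSB, FOSL1, FOSL2, JUN, JUNB, JUND, ATF3, BATF and BATF3. ATAC-seq peaks of 6 libraries that overlapped were merged into regions, and a region was assigned to a gene when its top summit, that of the peak with the highest fold enrichment, lay in the gene body or within 100 kb of it (GENCODE version 44, GRCh38). This gave 235 regions of 105569 in all, at 10 of 20007 protein-coding genes. The ATF3 and BATF3 windows, both on chromosome 1, shared 14 of these regions, and no other windows shared any. Assignment was by distance alone, and whether a region acts on the gene was not tested. Regions were chosen by the positions of peaks and by their fold enrichment, which sets the top summit, over all 6 libraries, and not by the comparison between the groups. The gene family itself was picked after AP-1 letters had been seen at regions gained in these same libraries.

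The vector group held 3 libraries of RH30 cells that received Cas9 and a scramble guide RNA, and the MyoD-deleted group held 3 libraries of RH30 cells that received Cas9 and guides against MyoD, the myogenic transcription factor by which this tumor is recognised. The labels call the libraries of a group biological replicates and name no time after transduction. The sources differ on the cells, since the paper's text on ATAC-seq names RH30-SR cells, which carry the IκBα super repressor of NF-κB, whereas its methods and the labels name RH30. Whether the MyoD-deleted cells were a pool or a clone is not given in the sources used here. Each library is a bulk sample, so that fewer cells with an open region and less opening per cell cannot be told apart.

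AP-1 is a pair of basic leucine zipper proteins, in which FOS proteins join a JUN protein, JUN proteins may also join each other, and ATF3 and the BATF proteins act as further partners. The pair binds TGACTCA, which reads TGAGTCA on the opposite strand. FOS, FOSB, JUN and JUNB are immediate early genes, induced quickly by growth factors and stress, and JUN is known to restrain MyoD in muscle precursor cells.

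The libraries had 63140 to 74121 peaks in vector cells and 73745 to 80608 in MyoD-deleted cells, and 162 to 190 and 188 to 196 of the 235 AP-1 regions were called in them. Rank correlations of fold enrichment over the 47885 regions called in all 6 libraries were 0.905 to 0.935 within groups and 0.810 to 0.867 between them. The region at the 5′ end of MYOD1, the targeted gene, was called in all 6 libraries, at percentile ranks of 59.7 to 65.7 in vector and 49.9 to 57.1 in MyoD-deleted libraries, which checks neither the cut nor the protein. Of 10 genes of the muscle lineage and of this tumor, 8 had a region at the 5′ end in all 6 libraries and MYF6 and PAX7 had none. Of 7 genes of other cell types, 5 (PTPRC, CD3E, PECAM1, EPCAM and ALB) had none in any library, whereas CDH5 had one in 3 MyoD-deleted and 0 vector libraries and KRT5 in 3 and 1. The part of these differences in the results was not tested.

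Results showed that accessibility changed at single regions of the AP-1 loci, whereas over the 10 genes the share of called regions, by centred height and by rank of fold enrichment, was close to or under that of all regions. Height and rank were both compared, since the peak lists hold no read counts. Summit height is the log2 of the pileup at the summit over the smallest background of that library, set to 0 at the median region, and the rank is the percentile of a region's fold enrichment over its local background. Of the 235 regions, 143 were called in all 6 libraries and were tested, 6 were gained (called in every MyoD-deleted library but no vector library), 1 was lost, and 85 were called in other combinations. By height, 18 of the 143 (12.6%) were higher and 16 (11.2%) were lower in MyoD-deleted libraries at an adjusted p under 0.05 (limma), beside 11.4% and 12.8% of all tested regions. By rank, 3 were higher and 3 lower (2.10% each), beside 4.12% and 4.67%, and all 6 were also called by height in the same direction. The median change over the 143 regions was 0.08 in height and 0.06 percentile points in rank, beside 0.04 and −0.08 over all tested regions. Heights did not overlap between the groups at 33 regions that were higher and 21 that were lower, where 19.8% and 18.1% of all tested regions did the same. Among the 96 tested regions over 2 kb from a protein-coding start, 14 were higher and 15 lower by height (14.6% and 15.6%). Among the 47 nearer ones, 4 were higher and 1 was lower (8.51% and 2.13%). All tested regions were not split in this way, so whether the difference is particular to the AP-1 loci was not tested.

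The centring matters for this split. Without it the median region was 0.19 higher in MyoD-deleted libraries, and 49 AP-1 regions (34.3%) were higher and 7 (4.90%) lower by height, beside 24.7% and 8.03% of all tested regions. When −log10 p was ranked in place of fold enrichment, 16 (11.2%) were higher and 20 (14.0%) lower, beside 9.03% and 10.9%. The height changes below are therefore relative to the median region. Counts without centring that are given for single genes below stand beside these 24.7% higher and 8.03% lower of all tested regions. The local background moved in the direction of the height at all 34 regions called by height, by 0.17 to 0.71 at the higher and by −0.04 to −0.77 at the lower ones, and its part in these calls was not tested. The number of calls by rank changed when single libraries were left out, over all regions as well as at the AP-1 loci, while the 6 AP-1 changes kept their direction and were between 14.7 and 38.6 points in size. There were 6 higher regions without vector replicate 1, and 1 without vector replicate 2, MyoD-deleted replicate 1 or MyoD-deleted replicate 2, where the counts over all tested regions were 2459, 770, 957 and 622, against 1973 with all libraries. There were 0 lower regions without any one of vector replicates 2 and 3 and MyoD-deleted replicates 1 and 2, where the counts over all regions were 831, 1027, 1281 and 1074, against 2234. By height, 10 regions were lower without vector replicate 2 and 9 without MyoD-deleted replicate 1. The counts over all tested regions were then 4522 and 5143, against 6149 with all libraries. Without MyoD-deleted replicate 2, 10 were higher, where the count over all tested regions was 3584, against 5438.

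**Figure D1:**
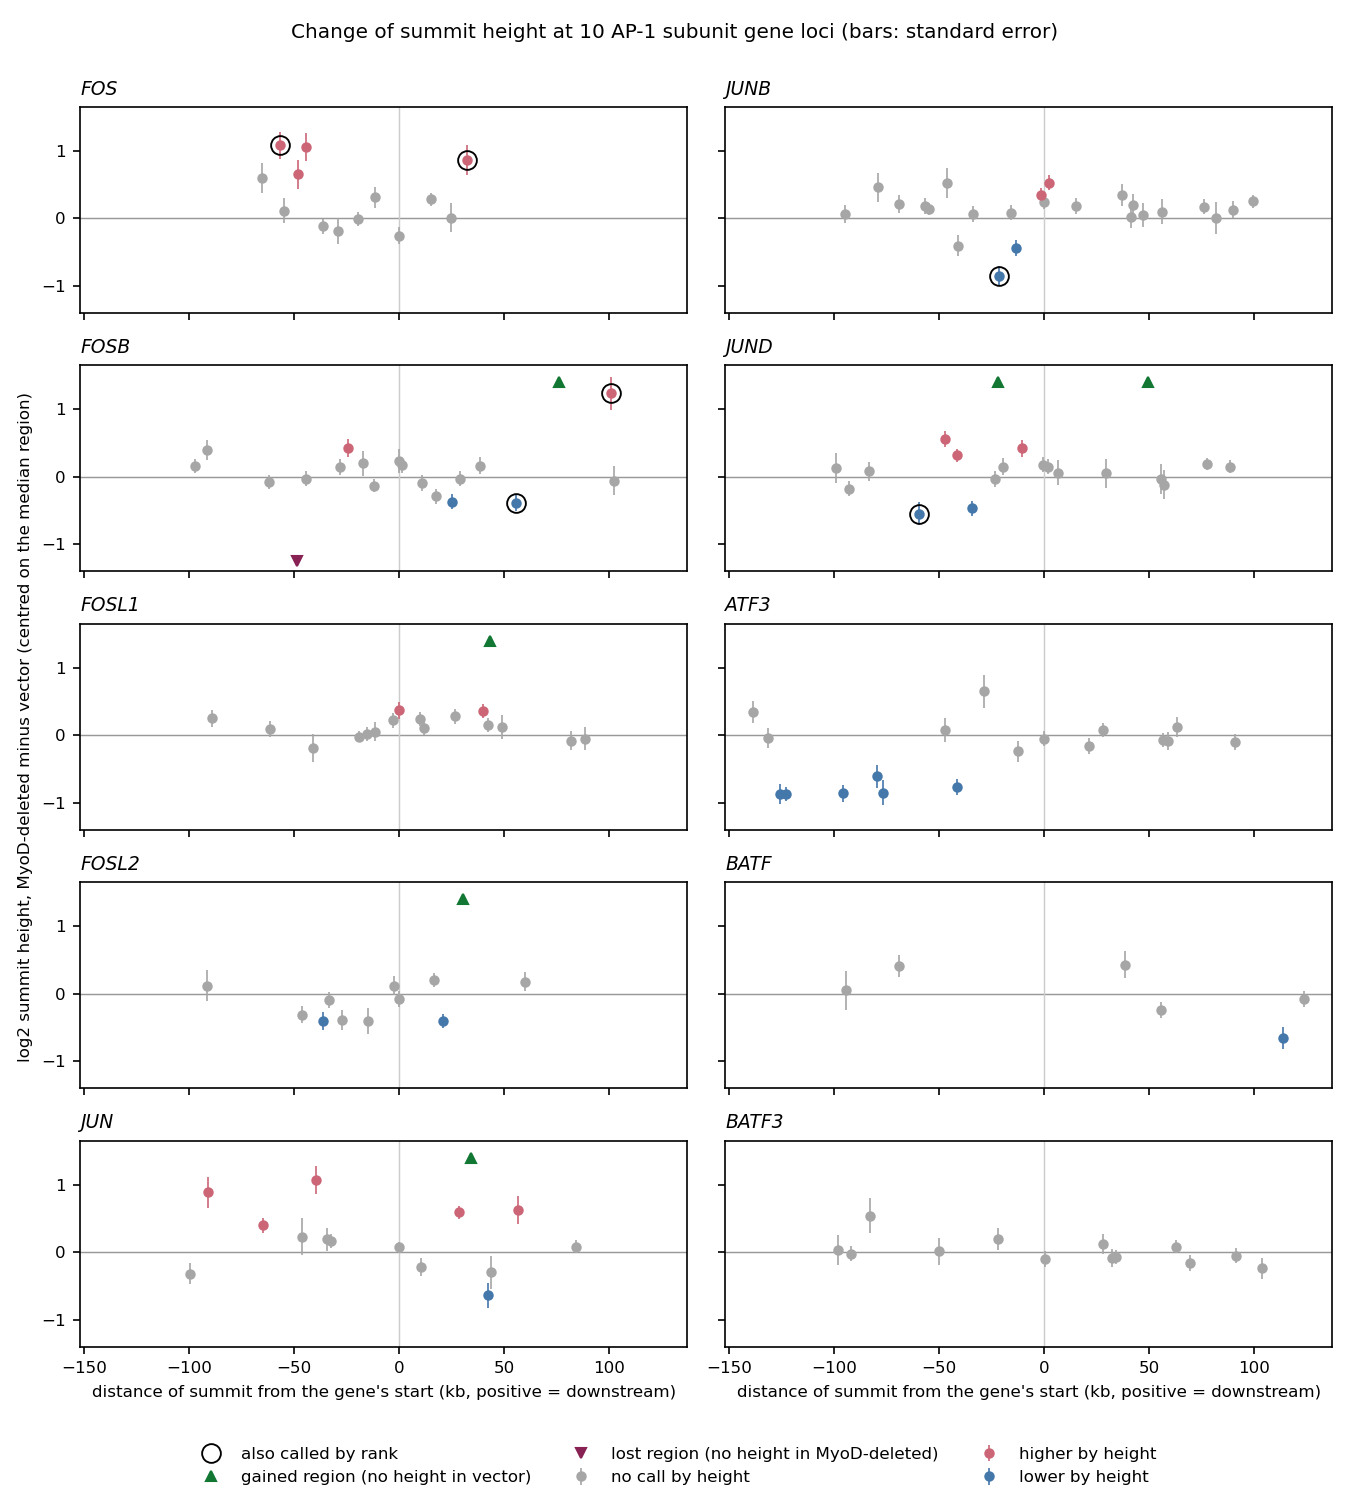
Change of log2 summit height, MyoD-deleted minus vector, for each AP-1 region called in all 6 libraries, with bars for the standard error. The horizontal axis is the distance of the summit from the start of the gene's canonical transcript in kb. Rings mark the 6 regions also called by rank, and triangles at the edges mark the 6 gained regions and the 1 lost region, which have no height in one group. FOS and JUN carry higher regions on both sides of the gene. The 6 lower regions of ATF3 all lie upstream of its canonical start, the one at −41.4 kb inside the gene body.

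The summits of some of these regions hold an AP-1 site or CAGCTG, the E box that MyoD dimers prefer. The sequences shown are those of the JUN, FOS and FOSB regions that were higher or gained and had an AP-1 site within 100 bp of the summit. They are read from GRCh38 on the plus strand, and the capitals mark the site.
JUN +28.5 kb, chr1:58755486-58755546: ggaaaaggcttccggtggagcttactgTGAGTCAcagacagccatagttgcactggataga
JUN +34.2 kb (gained), chr1:58749875-58749935: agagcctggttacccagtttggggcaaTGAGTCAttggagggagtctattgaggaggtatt
JUN +56.4 kb, chr1:58727546-58727606: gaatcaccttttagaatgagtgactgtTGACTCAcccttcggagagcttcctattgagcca
JUN −39.6 kb, chr1:58823596-58823656: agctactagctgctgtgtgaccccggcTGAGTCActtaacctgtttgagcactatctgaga
JUN −65.0 kb, chr1:58848971-58849031: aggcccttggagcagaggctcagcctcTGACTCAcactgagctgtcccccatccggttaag
FOS −44.1 kb, chr14:75234697-75234757: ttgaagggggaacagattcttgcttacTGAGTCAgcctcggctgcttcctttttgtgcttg
FOSB +101.0 kb, chr19:45568924-45568984: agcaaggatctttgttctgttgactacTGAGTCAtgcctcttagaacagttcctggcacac

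The next sequences, likewise from the plus strand, come from regions that were lower in MyoD-deleted libraries and are examples of those with an E box or an AP-1 site, again in capitals. The ATF3 −95.6 kb and −41.4 kb regions hold both.
ATF3 −122.7 kb, AP-1 site, chr1:212486082-212486142: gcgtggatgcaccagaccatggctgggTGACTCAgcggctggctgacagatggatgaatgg
ATF3 −95.6 kb, E box, chr1:212513161-212513220: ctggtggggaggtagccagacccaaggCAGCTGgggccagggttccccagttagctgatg
ATF3 −41.4 kb, E box, chr1:212567347-212567406: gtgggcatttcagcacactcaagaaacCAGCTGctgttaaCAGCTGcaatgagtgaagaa
JUN +42.1 kb, E box, chr1:58741874-58741933: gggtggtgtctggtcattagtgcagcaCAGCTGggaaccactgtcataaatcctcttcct
JUNB −13.2 kb, E box, chr19:12778232-12778291: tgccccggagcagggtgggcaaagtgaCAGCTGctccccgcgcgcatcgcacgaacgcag
JUND −34.5 kb, AP-1 site, chr19:18316113-18316173: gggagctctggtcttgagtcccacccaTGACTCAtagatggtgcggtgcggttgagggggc

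Over all members, an AP-1 site (TGACTCA or TGAGTCA, which read the same site on either strand) lay within 100 bp of the summit of 37 of 235 regions (15.7%), beside 17.9% of all regions. The 18 regions that were higher by height had it in 6 cases (33.3%, beside 33.0% of all higher regions), and the 16 that were lower in 5 cases (31.2%, beside 14.5% of all lower regions). CAGCTG lay at 51 of 235 regions (21.7%, beside 25.1% of all). It was at 1 of the 18 higher regions (5.56%, beside 15.9%) and at 10 of the 16 lower ones (62.5%, beside 57.1%). JUN had an AP-1 site at 7 of its 26 regions, the largest share among the 10 genes, and 4 of its 5 higher regions held one. The shares rest on few regions and are a description of letters, not of bound protein.

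FOS, the founding partner of JUN in AP-1 (ENSG00000170345.10, chr14:75278826-75282230, plus strand), had 20 regions, of which 13 were tested. By height 4 were higher and 0 were lower (limma, with 6 of 13 at an unadjusted p under 0.05), which is 30.8% higher beside the 11.4% of all regions. Without centring, 7 were higher and 0 lower, where 24.7% and 8.03% of all tested regions were. A group of 3 lay upstream of the gene in intergenic DNA, at −56.5, −48.2 and −44.1 kb from the start. The protein-coding start nearest to the −56.5 kb region was that of TMED10, 45747 bp away. The fourth lay downstream at +32.1 kb. All 4 were below the median region in vector cells.

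At the FOS −56.5 kb region (chr14:75221938-75222782) the pileup at the summit was 44, 19 and 27 in vector replicates 1 to 3 and 51, 64 and 57 in MyoD-deleted replicates 1 to 3. Set on the height scale, these were −0.88, −1.56 and −1.29 against −0.19, −0.04 and −0.25. Every MyoD-deleted library lay above every vector library. The change was 1.08 ± 0.20 (SE), a height 2.12 times as large (adjusted p = 0.000768, limma), and the percentile rank moved from 10.7 ± 5.74 to 39.0 ± 12.7 (SD, n = 3 each), by 28.2 points (adjusted p = 0.0295). The FOS −44.1 kb region (chr14:75234227-75234993), which carries the AP-1 site shown, had heights of −1.05, −1.72 and −1.46 in vector and −0.33, −0.46 and −0.25 in MyoD-deleted libraries. Here too the groups were apart, with a change of 1.06 ± 0.21 (SE, adjusted p = 0.00109, limma), while the rank moved by 18.8 points with an adjusted p of 0.0984. Between them, the FOS −48.2 kb region (chr14:75230183-75230862) had heights of −1.75, −1.28 and −1.72 against −0.90, −0.92 and −1.0, a change of 0.65 ± 0.21 (SE, adjusted p = 0.0319, limma). Its percentile ranks overlapped, and its local background rose by 0.65, beside 0.39 at −56.5 kb and 0.60 at −44.1 kb. At FOS +32.1 kb (chr14:75310611-75311350) heights were −2.25, −2.11 and −1.87 in vector and −1.10, −1.46 and −1.09 in MyoD-deleted libraries. This was the lowest tested region of the locus in vector cells, and it differed by 0.86 ± 0.22 (SE, adjusted p = 0.00851, limma), with a rank change of 17.1 points (adjusted p = 0.0160) and a background change of 0.17.

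The region at the 5′ end of FOS (chr14:75276961-75279277, summit at −0.2 kb) went the other way by rank. Its fold enrichment was 9.96, 9.90 and 8.18 in vector and 7.77, 8.42 and 8.09 in MyoD-deleted libraries, which are percentile ranks of 61.6, 59.9 and 45.4 against 37.2, 36.7 and 33.7. The groups did not overlap by rank and the change of −19.7 points was the largest by rank among the 5′ regions, but it did not pass (adjusted p = 0.0955, limma). When −log10 p was ranked instead, the change of −5.13 points passed (adjusted p = 0.0115). Its heights of 2.40, 2.94 and 2.73 against 2.44, 2.25 and 2.60 overlapped, and the change was −0.26 ± 0.12 (SE, adjusted p = 0.144). Of the 5′ regions of 12515 other genes, those of CCP110, ATP1B3 and SHD had the most similar percentile ranks over the 6 libraries, with Euclidean distances of 13.5, 14.2 and 14.3, and rank changes of −15.0, −13.8 and −19.6 points. The promoter that this region covers is given from RefSeq (GRCh38.p14, plus strand) with the only match among the letters searched in capitals, TATAAA, 33 bases before the start. The letters searched were the AP-1 site, TGACGTCA, CC and GG around 6 letters A or T, CAGCTG and TATAAA. Only exact matches in the 250 bases shown were sought. Sites farther upstream in the region, or with other letters, would not be seen. On either strand, TATAAA lies in the 250 bases before 10.7% of 35116 RefSeq starts.
FOS promoter, chr14:75278578-75278827: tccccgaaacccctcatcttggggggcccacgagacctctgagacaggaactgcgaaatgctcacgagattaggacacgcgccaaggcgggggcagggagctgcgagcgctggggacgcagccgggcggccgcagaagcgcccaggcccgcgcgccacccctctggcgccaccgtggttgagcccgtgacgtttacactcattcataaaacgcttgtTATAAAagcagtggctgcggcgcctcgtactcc

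JUN, the main partner of the FOS proteins (ENSG00000177606.9, chr1:58776845-58784048, minus strand), had 26 regions and 14 tested. By height 5 were higher and 1 was lower, or 35.7% and 7.14% of those tested, and by rank 0 were called (limma, 3 of 14 at an unadjusted p under 0.05). Without centring 6 were higher and 0 lower by height, where 24.7% and 8.03% of all tested regions were. The higher regions lay on both sides of the gene, at −91.0, −65.0 and −39.6 kb in intron 1 of the non-coding gene LINC01135 and at +28.5 and +56.4 kb in intron 1 of the non-coding gene ENSG00000283445.

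The largest change at JUN was at −39.6 kb (chr1:58823369-58824197), with heights of 0.33, −0.32 and −0.65 in vector and 0.80, 1.16 and 0.61 in MyoD-deleted libraries. The lowest MyoD-deleted library was above the highest vector library. The difference was 1.07 ± 0.21 (SE, adjusted p = 0.000997, limma) and the rank moved by 26.6 points (adjusted p = 0.0527). The region at +28.5 kb (chr1:58755073-58756033) was already near the top by rank, at percentiles of 96.5 to 97.0 in vector libraries, and its heights were 2.14, 1.88 and 2.00 against 2.55, 2.69 and 2.56. Although the heights were apart by 0.59 ± 0.10 (SE, adjusted p = 0.000270, limma), the rank moved by 1.08 points only. At −91.0 kb (chr1:58874547-58875429) heights were −1.34, −0.64 and −0.55 in vector and 0.12, −0.37 and 0.40 in MyoD-deleted libraries, a change of 0.89 ± 0.23 (SE, adjusted p = 0.00811, limma). Vector replicate 1 was the lowest of these, and the groups did not overlap. The other higher regions of JUN changed by 0.40 at −65.0 kb (adjusted p = 0.0129) and by 0.62 at +56.4 kb (adjusted p = 0.0369, limma), and at the latter the heights overlapped.

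One JUN region was lower, at +42.1 kb (chr1:58741605-58742423), in the same intron as 2 of the higher ones. Its heights were 0.37, −0.16 and 0.08 in vector and −0.73, −0.62 and −0.28 in MyoD-deleted libraries, all of the latter below the former, with a change of −0.64 ± 0.19 (SE, adjusted p = 0.0167, limma). The local background moved with height at JUN, by 0.32 to 0.71 at the 5 higher regions and by −0.35 at the lower one. The 5′ region of JUN (chr1:58783397-58785849) was the highest of all 5′ regions and changed by 0.07 ± 0.08 (SE) in height.

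**Figure D2:**
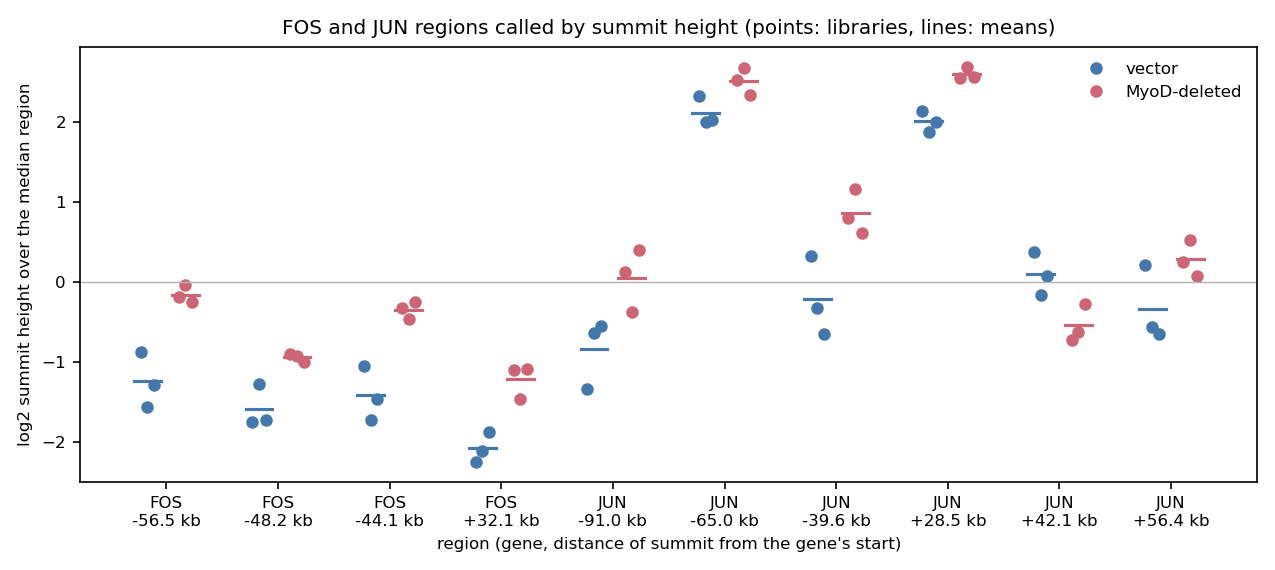
Log2 summit height over the median region in each library, for the 4 FOS and 6 JUN regions called by height, with a line at the group mean. The MyoD-deleted libraries lie above the vector libraries at all 4 FOS regions and at 4 of the 5 higher JUN regions, overlap with them at JUN +56.4 kb and lie below them at JUN +42.1 kb.

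JUNB, a JUN protein that often opposes JUN, had 33 regions and 24 tested, with 2 higher and 2 lower by height (8.33% each). Without centring 12 were higher and 1 was lower, where 24.7% and 8.03% of all tested regions were. The 2 higher ones flank the gene (ENSG00000171223.6, chr19:12791486-12793315, plus strand). At +2.2 kb (chr19:12793455-12794067) heights were 1.27, 1.45 and 1.75 in vector and 2.03, 1.99 and 2.04 in MyoD-deleted libraries, apart by 0.53 ± 0.12 (SE, adjusted p = 0.00289, limma). The MyoD-deleted libraries agreed closely here and lay above all vector libraries. At −1.3 kb the change was 0.35 (adjusted p = 0.0161, limma), also without overlap. The 2 lower regions lay in or near HOOK2, the neighbouring gene. At −21.5 kb, in coding exon 11 of HOOK2 (chr19:12769689-12770341), heights were 0.92, 1.14 and 1.31 in vector and 0.10, 0.20 and 0.53 in MyoD-deleted libraries. All MyoD-deleted libraries were below all vector libraries, the change was −0.85 ± 0.15 (SE, adjusted p = 0.000402, limma), and the percentile rank moved by −29.7 points (adjusted p = 0.0366). At −13.2 kb the change was −0.44 (adjusted p = 0.0130, limma). Both lower regions had CAGCTG within 100 bp of the summit.

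JUND, the JUN protein expressed in most resting cells (ENSG00000130522.6, chr19:18279694-18281622, minus strand), had 32 regions and 18 tested, with 3 higher (16.7%) and 2 lower (11.1%) by height. Without centring 6 were higher and 0 lower, where 24.7% and 8.03% of all tested regions were. The clearest height call was at −47.0 kb (chr19:18328275-18329189), with heights of 0.89, 0.73 and 0.72 against 1.42, 1.32 and 1.27, apart by 0.56 ± 0.12 (SE, adjusted p = 0.00186, limma). All 3 MyoD-deleted libraries were above the vector libraries. The region at the start of LSM4, −41.6 kb from JUND, changed by 0.32 (adjusted p = 0.0198) and that at −10.5 kb by 0.42 (adjusted p = 0.0236, limma). Lower regions were at −34.5 kb in intron 1 of LSM4, where the summit falls on the AP-1 site shown (heights of 1.39, 1.32 and 1.42 against 1.07, 0.80 and 0.84, adjusted p = 0.00630, limma), and at −59.6 kb in intron 1 of PGPEP1. At the latter (chr19:18339891-18341538) fold enrichment was 7.36, 8.38 and 7.51 in vector and 6.23, 6.17 and 6.22 in MyoD-deleted libraries. The groups were apart, and this region passed by height (−0.55, adjusted p = 0.0240) and by rank (−21.7 points, adjusted p = 0.0473, limma).

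FOSB, a FOS protein that is also induced early (ENSG00000125740.15, chr19:45467995-45475179, plus strand), had 28 regions and 18 tested, with 2 higher and 2 lower by height (11.1% each). Without centring 5 were higher and 0 lower, where 24.7% and 8.03% of all tested regions were. The largest change of the 143 tested regions was at the far edge of this locus, at +101.0 kb in intron 1 of OPA3 (chr19:45568564-45569221). The pileup there was 23, 9 and 20 in vector and 32, 37 and 40 in MyoD-deleted libraries, and the heights were −1.82, −2.64 and −1.72 against −0.86, −0.83 and −0.77. Vector replicate 2 had the lowest pileup of all, and the groups did not overlap. The height differed by 1.24 ± 0.25 (SE, adjusted p = 0.00121, limma), 2.36 times, and the rank by 35.6 points (adjusted p = 0.0272). At −24.4 kb the height changed by 0.43 (adjusted p = 0.0251). At +55.8 kb in intron 8 of VASP it changed by −0.39 (adjusted p = 0.0250), with a rank change of −18.0 points (adjusted p = 0.0339, limma). At +25.1 kb in intron 5 of RTN2 the height changed by −0.37 (adjusted p = 0.0225).

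FOSL1, or FRA1, a FOS protein linked to invasive tumors (ENSG00000175592.9, chr11:65892049-65900573, minus strand), was the one member whose 5′ region passed by height. That region (chr11:65899216-65900842) had heights of 1.03, 1.00 and 1.33 in vector and 1.27, 1.63 and 1.58 in MyoD-deleted libraries. One MyoD-deleted library lay within the vector range. The change was 0.37 ± 0.13 (SE, adjusted p = 0.0418, limma), and by rank 7.61 points (adjusted p = 0.412). The height call was lost in 5 of 11 alternatives (largest adjusted p = 0.183), among them those without vector replicate 1 or 2 or without MyoD-deleted replicate 2 or 3, with changes of 0.31 to 0.34. By rank of −log10 p the region passed at 11.5 points (adjusted p = 0.0354). One other FOSL1 region of 16 tested was higher, at +39.8 kb at the start of MUS81 (0.36, adjusted p = 0.0123), and 0 were lower (limma, 4 of 16 at an unadjusted p under 0.05 by height and 1 by rank). Without centring, 7 were higher and 0 lower, where 24.7% and 8.03% of all tested regions were.

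FOSL2, or FRA2, a relative of FOSL1 (ENSG00000075426.12, chr2:28392448-28417317, plus strand), had 11 tested regions, of which 0 were higher and 2 (18.2%) lower by height (limma, 4 of 11 at an unadjusted p under 0.05), whereas 1 was higher and 0 were lower without centring. At +20.8 kb, in the part of exon 4 after the coding sequence, heights were 2.59, 2.74 and 2.77 in vector and 2.08, 2.33 and 2.48 in MyoD-deleted libraries. They did not overlap and changed by −0.40 ± 0.11 (SE, adjusted p = 0.00922, limma). The region at −36.2 kb changed by the same −0.40 (adjusted p = 0.0344), with overlap between the groups. Both have CAGCTG within 100 bp of the summit.

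ATF3, a stress-induced member that pairs with JUN proteins (ENSG00000162772.18, chr1:212565334-212620777, plus strand), had lower but no higher regions by height, and 5 lower and 2 higher ones without centring. Of its 18 tested regions 6 were lower (33.3%, beside the 12.8% of all regions) and 0 were higher (limma, 8 of 18 at an unadjusted p under 0.05 by height). Distances are counted from the start of the canonical transcript, which lies inside the gene body, so that the window reaches farther upstream. All 6 lay over 40 kb upstream of that start, where 9 regions were tested, with a median height change of −0.77. This 40 kb limit takes in all 6 called regions, so the median mostly restates their changes. The most distant was at −125.7 kb and the nearest at −41.4 kb. The latter (chr1:212566570-212568024) lies beside another start of ATF3, which RefSeq places after position 212565406.

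At ATF3 −122.7 kb (chr1:212484740-212486653) the pileup was 380, 255 and 320 in vector and 156, 173 and 165 in MyoD-deleted libraries, with heights of 2.23, 2.19 and 2.28 against 1.43, 1.39 and 1.28. The libraries of each group were close to each other and the groups far apart, by −0.87 ± 0.10 (SE, adjusted p = 8.76e-06, limma). At −41.4 kb heights were 1.63, 1.79 and 1.61 against 0.88, 0.79 and 1.05, again with no overlap (−0.77 ± 0.12 SE, adjusted p = 0.000108, limma). The region at −95.6 kb (chr1:212512585-212514494) changed by −0.86 (adjusted p = 6.99e-05) and that at −125.7 kb by −0.87 (adjusted p = 0.000305, limma). The last pair, at −76.8 and −79.3 kb, changed by −0.85 and −0.61, and all 6 were apart between the groups by height. By rank 0 of the 18 were called (limma, 2 at an unadjusted p under 0.05). The local background at these 6 summits fell with the height, by −0.48 to −0.77. Over the 9 upstream regions, which include these 6, the median background change was −0.62. The other 12 tested regions of ATF3 changed by −0.24 to 0.65 and were not called.

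**Figure D3:**
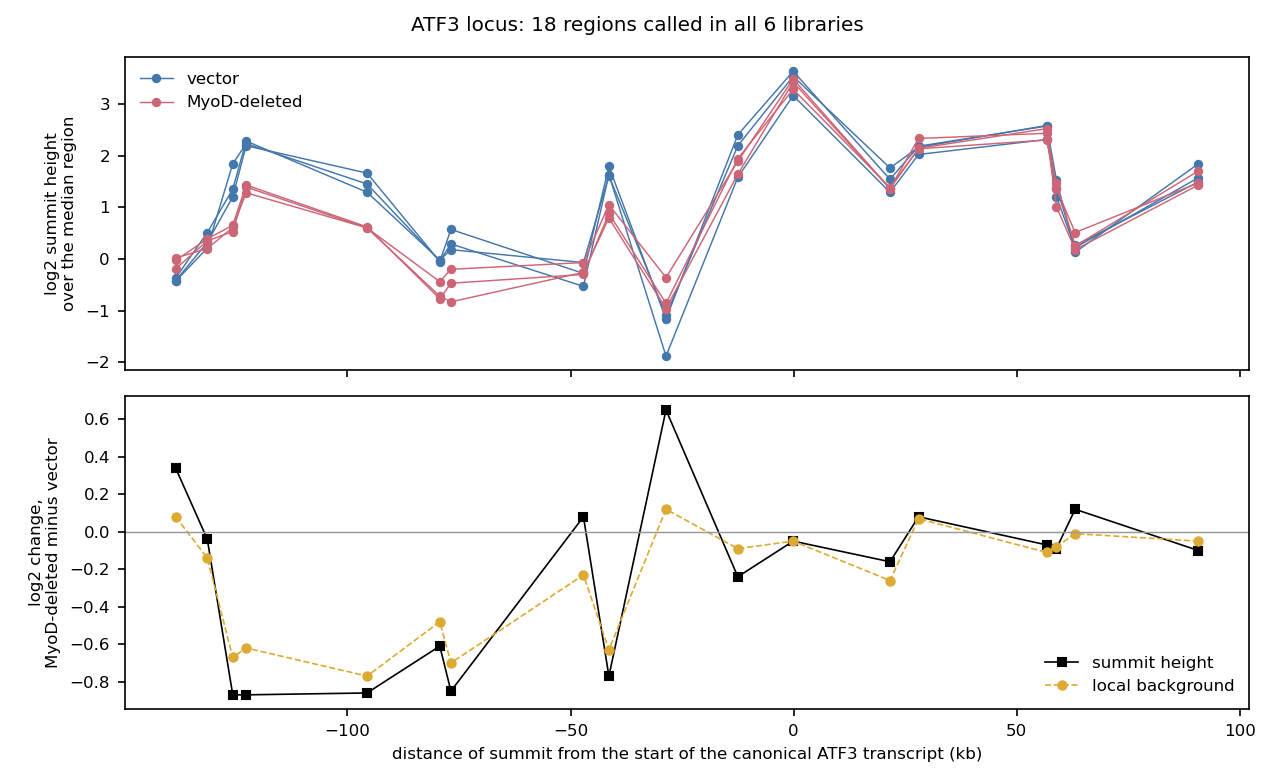
Top, log2 summit height over the median region in each library at the 18 ATF3 regions called in all 6 libraries, against distance from the start of the canonical transcript in kb. Bottom, the change of summit height and of local background at the same regions, MyoD-deleted minus vector, where both lie below −0.4 at the 6 lower regions. Among the other regions the height change runs from −0.24 to 0.65, the latter at −28.6 kb. Lines join neighbouring regions and carry no measurement between them.

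BATF, a partner of JUN proteins known from lymphoid cells (ENSG00000156127.8, chr14:75522455-75546993, plus strand), had the fewest regions, 9 with 6 tested, and none within 2 kb of its start. Of these 1 was lower by height (1 lower and 2 higher without centring), at +113.8 kb in intron 5 of FLVCR2, with heights of 1.20, 1.39 and 0.93 against 0.21, 0.48 and 0.89. MyoD-deleted replicate 3 came close to the lowest vector library without overlap, and the change was −0.65 ± 0.16 (SE, adjusted p = 0.00697, limma). BATF3, its relative from dendritic cells (ENSG00000123685.9, chr1:212686417-212699840, minus strand), had 13 tested regions and 0 called by either measure (limma, 0 at an unadjusted p under 0.05 by height and 1 by rank). Without centring 1 was higher. Of these 13, 8 are also counted for ATF3.

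At the 5′ ends, the heights in vector libraries ordered the genes as JUN (3.70 ± 0.07, SD, n = 3), ATF3 (3.44 ± 0.25), JUND (2.89 ± 0.25), FOSL2 (2.72 ± 0.27), FOS (2.69 ± 0.27), JUNB (1.74 ± 0.14), BATF3 (1.63 ± 0.18), FOSL1 (1.12 ± 0.18) and FOSB (0.57 ± 0.25). The libraries of JUND, FOSL2 and FOS overlapped with their neighbours in this order, as did those of JUNB and BATF3. Of the 9 regions, 0 were called by rank (limma, 1 at an unadjusted p under 0.05) and 1 by height, that of FOSL1. Apart from FOS and FOSL1, the changes of height were between −0.10 for BATF3 and 0.24 for JUNB. At JUNB the heights of 1.58, 1.79 and 1.85 in vector and 2.00, 1.88 and 2.07 in MyoD-deleted libraries did not overlap, yet the change of 0.24 ± 0.11 (SE) had an adjusted p of 0.109 (limma). The rank order differed from that of height, with BATF3 first at 73.7 ± 2.31 and JUNB near the end at 4.98 ± 1.51 (SD, n = 3) in vector libraries.

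**Figure D4:**
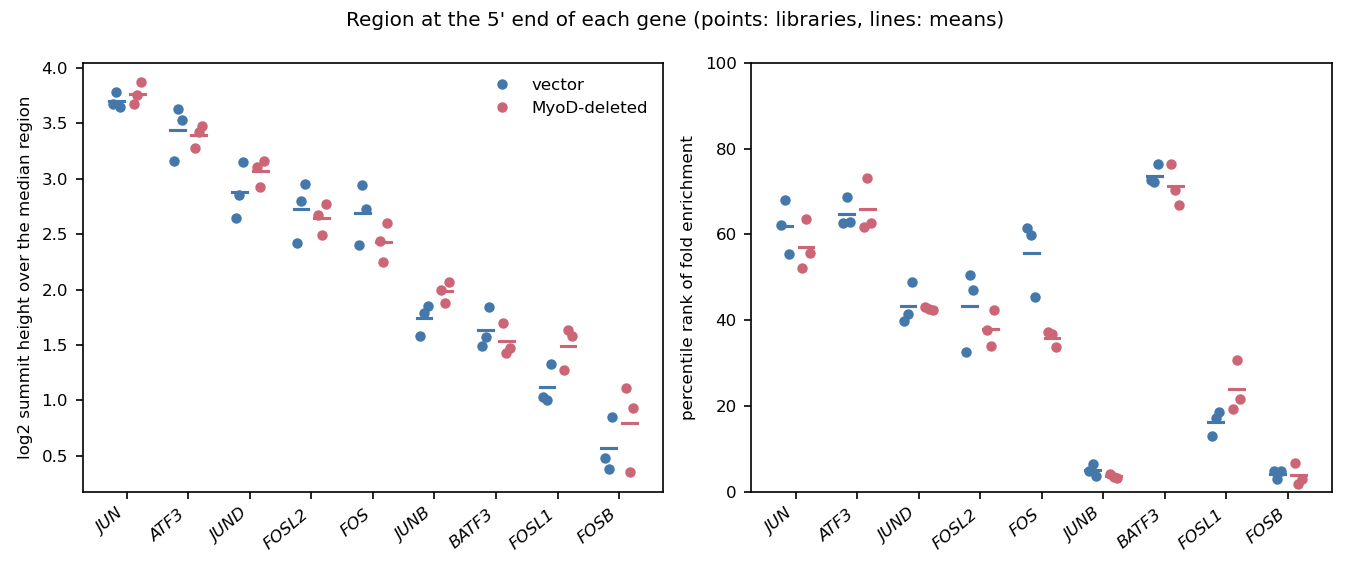
Log2 summit height over the median region (left) and percentile rank of fold enrichment (right) in each library at the 5′ region of 9 genes, with a line at the group mean. BATF had no region there. The MyoD-deleted libraries lie below the vector libraries by rank at FOS, and above them by rank at FOSL1, and the groups overlap for most other genes.

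The most enriched region of each locus by rank was usually neither at the start of the gene nor called. It lay at +15.3 kb for FOS (percentile ranks of 92.0 to 96.7 over the 6 libraries), at +84.0 kb for JUN (97.3 to 98.3), at +17.5 kb for FOSB (92.9 to 98.9), at +82.0 kb for FOSL1 (88.9 to 97.5), at −46.0 kb for FOSL2 (57.7 to 71.7) and at +15.1 kb for JUNB (88.0 to 96.3). For ATF3 and BATF3 it was 1 region that both windows share, at +28.0 kb from ATF3 (87.5 to 94.7). For JUND it was the called region at the start of LSM4 and for BATF the lower region in FLVCR2.

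Gained regions numbered 6 of 235 (2.55%, beside 4.56% of all regions) and the lost region 1 (0.43%, beside 1.78%). FOSB, FOSL1, FOSL2 and JUN had 1 gained region each and JUND had 2. The JUN +34.2 kb region (chr1:58749549-58749987), between 2 higher regions, had fold enrichments of 3.05, 4.67 and 3.79 in the MyoD-deleted libraries and held an AP-1 site, CAGCTG and the TEAD letters (GGAATG or CATTCC) near the summit. The FOSB +76.2 kb region (chr19:45543996-45544380) was the most enriched, at 6.91, 6.71 and 6.38. JUND had its more enriched one at +49.7 kb (3.65, 3.21 and 3.64). The FOSL1 +43.1 kb region in intron 1 of CFL1 and the FOSL2 +30.3 kb region had values of at most 2.18 and 2.98. The lost region was FOSB −48.4 kb in intron 4 of ERCC1 (chr19:45419371-45419811), at 2.91, 2.93 and 2.21 in the vector libraries, with CAGCTG near its summit. A region not called may still have reads, and no test was made of these patterns. Without vector replicate 1, 13 regions counted as gained, where all regions gave 8532, against 4816 with all libraries. Without vector replicate 3 or MyoD-deleted replicate 3, 2 counted as lost, where all regions gave 2737 and 2789, against 1883. Fewer libraries also make the criterion easier to meet.

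Just inside the 100 kb limit lay a JUN region 99384 bp from the gene (−8.15 points and −0.32 in height) and a BATF region at 99356 bp (0.09 points and −0.08). Just outside lay a FOSL1 region at 100188 bp, called in 0 vector and 2 MyoD-deleted libraries, and an ATF3 region at 101026 bp (5.52 points and 0.19).

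Other genes of the pathway were taken from lists of dimer partners, upstream kinases and phosphatases, immediate early genes with their regulators, and known AP-1 targets. Their 55 loci had 981 regions and 508 tested, of which 14 were higher and 17 lower by rank (2.76% and 3.35%, beside 4.12% and 4.67% of all regions), with a median change of 0.03 points. By height 65 were higher and 37 lower (12.8% and 7.28%, beside 11.4% and 12.8%), with a median change of 0.09. By rank, the dimer partners had 7 higher and 2 lower of 121 tested, the kinases and phosphatases 2 and 5 of 124, the early genes 2 and 4 of 132, and the targets 3 and 6 of 138. The largest shares of higher regions by rank, among loci with at least 5 tested, were at ATF4, a stress factor that pairs with FOS and JUN proteins (2 of 12), at ELK3, which binds serum response elements (1 of 6), and at DDIT3, or CHOP (3 of 20, with 1 lower). The largest shares of lower regions by rank were at CD44, a hyaluronan receptor (3 of 11), at DUSP10, a phosphatase of JNK and p38 (2 of 12), and at HBEGF, a ligand of the EGF receptor (2 of 15, with 1 higher). The calls by height were 2 higher and 0 lower at both ATF4 and ELK3, and 2 and 2 at DDIT3. They were 3 and 3 at CD44, 3 and 4 at DUSP10, and 3 and 2 at HBEGF. These loci rest on few regions each.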

How the data were processed

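Per the paper's methods, cells for ATAC-seq were trypsinized, frozen in medium with DMSO and serum, and sent to a company for library preparation. The part of this handling in the results was not tested. The authors mapped paired-end ATAC-seq reads to hg38 with Rsubread, identified proper pairs and called peaks with MACS2. Its options, and whether it used the proper pairs alone, are not given in the sources used here. There is 1 list of peaks per library. The submitters' processing notes also name bcl2fastq 2.20 and FastQC. For every peak the authors deposited a fold enrichment (a ratio, summit pileup to local background in that library), a −log10 p, a −log10 q and a score made from the −log10 q, none of them normalized between libraries. Read totals were not used here, so depth and counting error are unknown, and the number of libraries limits the precision. The authors' count test (DESeq2) was not run because the lists hold no counts.

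On the main chromosomes, 1 mitochondrial peak per library was left out. Pileup and background were recovered from fold enrichment and −log10 p under a Poisson model, within 0.1% for 100% of peaks. Peaks were merged into 105569 regions (the same number from bedtools 2.31.1). Regions in all 6 libraries were compared with limma 3.58.1 (lmFit, eBayes with a trend, no block) on inverse-normal ranks of fold enrichment and on log2 height, with Benjamini-Hochberg adjustment over 47885 regions. P-values measure the spread between these libraries only. Differences are MyoD-deleted minus vector. Motifs were searched on both strands within 100 bp of summits. Regions named are the 5′ region (within 2 kb of the canonical start), those called, the top gained or lost region and the top-ranked region of each gene, for other pathway genes at most 3 per direction by share called, and the 3 genes most alike by Euclidean distance. The members, lists and tests were chosen with earlier results of these data known. Promoters of FOSL1 and BATF3 are not reported here. Steps were tested on simulated data. The analysis used Python 3.11.15, pandas 2.3.3, scipy 1.17.1, numpy 2.4.6, matplotlib 3.10.9, pysam 0.24.0, R 4.3.3 and samtools 1.23.1.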

Additional observations from a re-analysis of the deposited data

How the results depend on the processing

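No AP-1 region called by height or rank changed direction under any alternative that could be run for it. Height calls at FOS −56.5, −44.1 and +32.1 kb, FOSB +101.0 kb, JUN +28.5, −39.6 and −91.0 kb, JUNB +2.2 and −21.5 kb, JUND −47.0 kb and 5 of the 6 ATF3 regions (all but −79.3 kb) passed under each alternative in which the region was present, and each of the 6 calls by rank missed the threshold under at least 1. The other height calls each missed the threshold under at least 1, most often at FOSB +55.8 kb (7 of 12 alternatives). Of the 34 height calls, 12 missed it without a trend and 13 without vector replicate 2. Counts of AP-1 regions moved as follows. With peaks of −log10 q of at least 5, 1 was higher by rank and 3 were lost, where all regions gave 1729 and 1858. With equal numbers of peaks 4 were lost, where all regions gave 3231. With peaks covering at least 50% of a region, 0 were higher by rank and 5 were lost, where all regions gave 1152 and 2793. The main settings gave 1973 higher by rank and 1883 lost over all regions. In a window of 50 kb 1 was higher by rank, and in one of 5 kb the counts were 0 and 0 by rank, 3 higher and 2 lower by height, and 0 gained and 0 lost, from fewer regions. By ranks of −log10 p 16 (11.2%) were higher and 20 (14.0%) lower, beside 9.03% and 10.9% of all regions, and by height without centring 49 (34.3%) and 7 (4.90%), beside 24.7% and 8.03%. Deviations of samples with the same replicate number had correlations of −0.04, −0.10 and 0.04 by rank and −0.04, −0.20 and 0.09 by height. Between different numbers they ran from −0.12 to 0.16 by rank and from −0.23 to 0.26 by height. With 3 libraries per group these values cannot decide whether the numbers pair the libraries. With the replicate number as a block, 1 AP-1 region was lower by rank, where all regions gave 1510, against 2234 without it. In that fit 9 and 11 pathway regions were higher and lower by rank, while all 34 height calls and 3 of the 6 rank calls were kept. Leaving out 1 library at a time gave 1 to 6 higher and 0 to 2 lower by rank, 10 to 20 higher and 9 to 18 lower by height, 7 to 13 gained, 1 to 2 lost, and 4 to 16 higher and 6 to 14 lower pathway regions. Over all regions, 622 to 2459 were then higher and 831 to 1908 lower by rank, and 3584 to 6533 higher and 4522 to 6853 lower by height. Gained ones numbered 5285 to 8532 and lost ones 2212 to 2789. The share with an AP-1 site was 10.2% within 50 bp of the summit and 26.8% over whole regions. No 5′ region was called by rank of fold enrichment. By ranks of −log10 p the change there reversed to 3.01 points at FOSB, 0.013 at JUN, 4.39 at JUNB, 1.60 at JUND and −0.11 at ATF3. By the same ranks, FOS (−5.13 points, adjusted p = 0.0115, limma) and FOSL1 (11.5 points, adjusted p = 0.0354) passed. Leaving out 1 library gave −1.94 to 1.08 points at FOSB (reversed without MyoD-deleted replicate 2, and at 0.077 without MyoD-deleted replicate 3), −2.46 to 1.63 at JUND (reversed without vector replicate 3) and −2.40 to 3.21 at ATF3 (reversed without MyoD-deleted replicate 2). The cause was not tested.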
